A study of Mus musculus with 8 samples.

Results

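The RNA-binding LIN28 and IGF2BP proteins and the chromatin proteins of the HMGA family are made widely in the embryo, are low in most adult tissues and return in many tumours, and are therefore called oncofetal. The 7 genes described here, Lin28a, Lin28b, Igf2bp1, Igf2bp2, Igf2bp3, Hmga1 and Hmga2, were taken by their symbols from a count table of 53170 named genes, and all 7 were found. They were read in bulk RNA sequencing of organoids grown from the glandular stomach (hindstomach) epithelium of mouse embryos at embryonic day 18.5 and kept 5 days in growth medium. There were 2 groups of 4 libraries. The YAP5SA organoids carried Shh-Cre and the YAP5SA transgene, a form of the transcriptional coactivator YAP that escapes restraint by the Hippo kinases. The control organoids carried Shh-Cre alone, so the recombinase, which acts in epithelium of the foregut, was common to both groups.

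LIN28 proteins bind the precursors of the let-7 microRNAs and block their maturation, in part by recruiting the uridylating enzymes TUT4 and TUT7. Mature let-7 in turn represses mRNAs that carry its seed match, among them those of Lin28 itself, Hmga2 and the Igf2bp genes, which ties the families into a loop. IGF2BP proteins bind mRNAs, many of them marked by m6A, and steady them, and HMGA proteins bend AT-rich DNA and alter how open chromatin is.

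The let-7 family is defined by its seed, and the following mature sequences (RefSeq, GRCm38.p6) show how it is shared. Capitals mark the seed, bases 2 to 8.
mmu-let-7a-5p: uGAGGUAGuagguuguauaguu
mmu-let-7g-5p: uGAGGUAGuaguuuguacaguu
mmu-miR-98-5p: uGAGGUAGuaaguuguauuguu
Of 11 mature let-7 and miR-98 sequences in the table, 10 carried this seed. Its 7-base match, CTACCTC, was searched on the sense strand of the 3′ UTR of the principal coding transcript of each gene (GENCODE M21, GRCm38). All 7 genes held at least 1 match, against 9.64% of 11801 tested genes with a 3′ UTR; let-7 regulation is part of why these genes are grouped, so this describes the choice.

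Hmga2, Igf2bp1 and Lin28b held 4 matches each and Lin28a held 2, while Igf2bp2, Igf2bp3 and Hmga1 held 1 each. A match followed by A is the longer 8-base form, which 3 of the matches in Igf2bp1 had. The first match of each gene that was counted above background is shown with the bases before it. Capitals mark the match and, where present, the A after it.
Hmga2 (chr10:120364224-120364245, minus strand): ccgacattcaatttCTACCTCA
Igf2bp1 (chr11:95961778-95961799, minus strand): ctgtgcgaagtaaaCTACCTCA
Igf2bp2 (chr16:22059473-22059494, minus strand): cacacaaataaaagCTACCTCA
Igf2bp3 (chr6:49086787-49086808, minus strand): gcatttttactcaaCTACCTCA
Hmga1 (chr17:27563278-27563299, plus strand): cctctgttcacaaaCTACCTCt
Lin28b (chr10:45381022-45381043, minus strand): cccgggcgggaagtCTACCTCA
A match is a description of the sequence and not evidence that let-7 acts on it in these organoids.

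**Figure D1:**
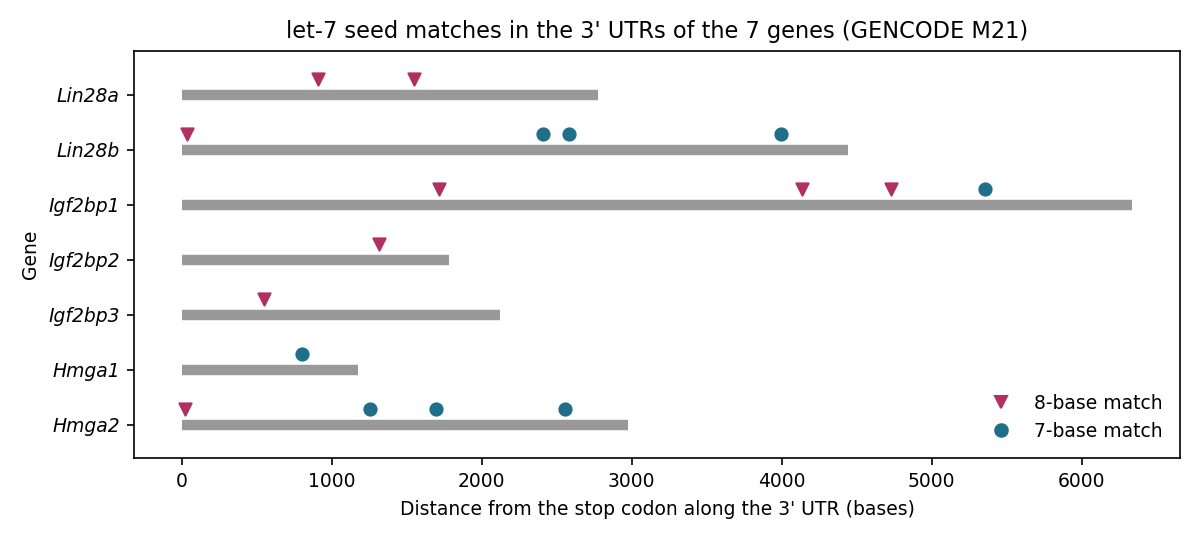
Positions of let-7 seed matches along the 3′ UTR of each of the 7 genes, in bases after the stop codon. Grey bars are the UTRs, triangles 8-base and circles 7-base matches. Igf2bp1 has the longest UTR, 6337 bases, and Hmga1 the shortest, 1178 bases.

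Total counts per library were between 13672268 and 19710648. The labels do not say whether libraries of a group came from separate embryos or cultures, so p-values reflect only how these libraries vary, and that variation may be technical. Xist was at 0.412 to 2.76 CPM in YAP5SA and 675.6 to 1049 CPM in control libraries, and the Y-linked genes Ddx3y, Eif2s3y, Kdm5d and Uty were high only in YAP5SA. Genotype and sex therefore cannot be told apart for any value below. The epithelial keratin gene Krt19 was abundant in both groups, with 2155 ± 83 CPM in YAP5SA and 2543 ± 99 CPM in control libraries. It was called lower in YAP5SA (log2 fold change −0.24, edgeR adjusted p = 0.000769). The 7 epithelial markers summed to 6433 to 6667 CPM in YAP5SA and 7785 to 8360 CPM in control libraries. Of these, 4 were lower, 1 was higher and 2 did not pass. The 8 gastric epithelial markers summed to 68.5 to 72.0 CPM in YAP5SA, against 2210 to 2387 CPM in control libraries. The claudin gene Cldn18, the most abundant of them, had 2.05 ± 1.31 CPM in YAP5SA and 1353 ± 42 CPM in control libraries. Of the 8 gastric markers 7 fell and 1 rose, Sox2, which had 47.6 ± 4.3 CPM in YAP5SA and 30.6 ± 1.7 CPM in control libraries and made up most of the YAP5SA sum.

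Of the 7 genes, 5 had enough counts to be tested. Igf2bp1, Igf2bp3 and Hmga1 rose in YAP5SA, Hmga2 fell, and Igf2bp2 did not pass the test (edgeR's quasi-likelihood test over 14058 genes, call at an adjusted p under 0.05). Lin28a was absent and Lin28b was close to the limit of counting in both groups. In the same comparison 49.1% of all tested genes were called, 23.6% higher and 25.5% lower, so 4 calls among 5 genes say little of the set as a whole. The median log2 fold change was 0.62 over the 5 genes and 0.00 over all tested genes, and the median size of change over all genes was 0.26. In bulk samples, fewer cells of a type and less RNA per cell cannot be told apart.

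**Figure D2:**
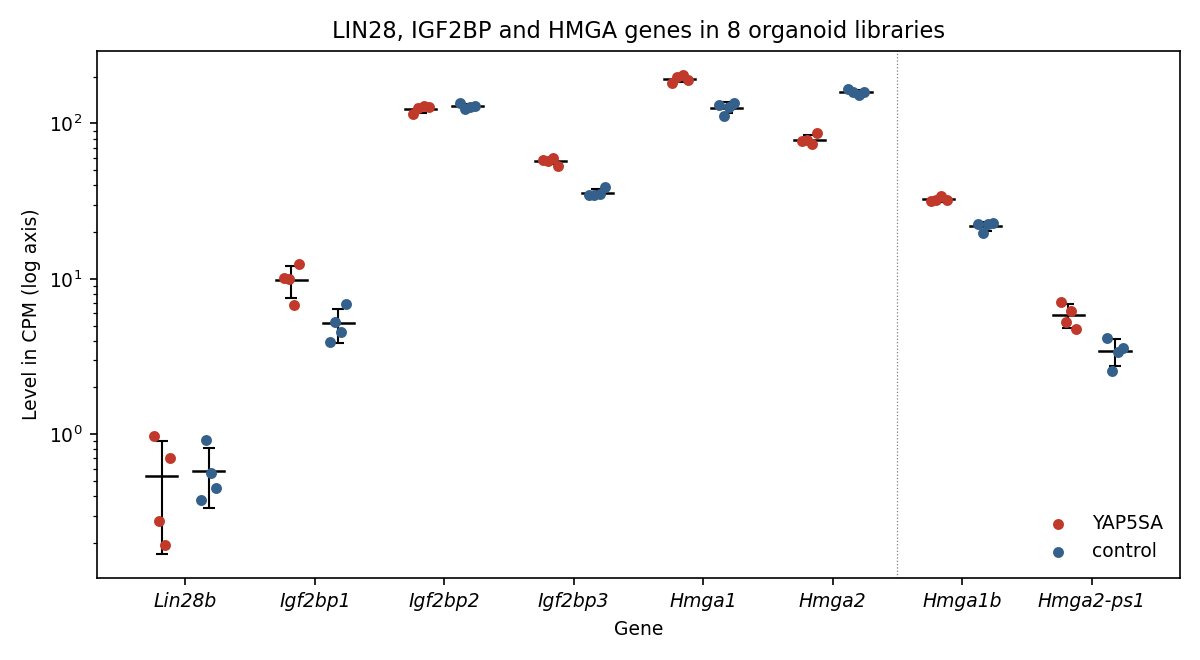
Level in CPM, on a log axis, of each gene in each library, with the mean and SD of 4 libraries per group. The 4 YAP5SA points of Hmga2 lie between 73.5 and 86.6 CPM, below the control points at 152.4 to 165.6 CPM, while those of its pseudogene Hmga2-ps1 lie above the control points.

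The LIN28 genes come first in the pathway. Lin28a, the paralogue known from pluripotent cells, had 0 counts in the 4 YAP5SA libraries and 1 count, in control 1, over the 4 control libraries. A floor of 3 counts over a group corresponds to 0.0454 CPM in YAP5SA and 0.0446 CPM in control libraries, so both groups were under it and no fold is given. Pluripotency and germ cell genes were also near 0, with 10 markers summing to 0.647 to 1.18 CPM in YAP5SA and 0.505 to 1.5001 CPM in control libraries, and Pou5f1, Dppa4, Zfp42 and Utf1 at 0 in every library.

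Lin28b, the paralogue more often found in fetal and tumour epithelium, was detected in every library but at few counts. It had 0.971, 0.276, 0.193 and 0.707 CPM in YAP5SA 1 to 4, and 0.379, 0.921, 0.560 and 0.450 CPM in control 1 to 4. The groups overlapped over nearly their whole range. Lin28b had 35 counts over the YAP5SA and 40 counts over the control libraries, with means of 0.537 ± 0.367 and 0.577 ± 0.241 CPM (exact two-sided permutation test, p = 0.886, n = 4 each). The log2 ratio of the means was −0.11 and lay between −0.56 and 0.21 when single libraries were left out, being highest without control 2 and lowest without YAP5SA 1. No difference in either direction was detected, and with so few counts a modest one could be missed.

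The IGF2BP genes differed in their calls, with Igf2bp1 and Igf2bp3 called higher and Igf2bp2 not called. Igf2bp1, the paralogue best known for carrying beta-actin mRNA in embryonic cells, was the least abundant of them. It had 10.1, 10.0, 6.76 and 12.4 CPM in YAP5SA 1 to 4, and 3.92, 5.25, 4.58 and 6.90 CPM in control 1 to 4. The groups touched at a single point, since YAP5SA 3 lay just under control 4. Igf2bp1 averaged 9.82 ± 2.33 CPM in YAP5SA and 5.16 ± 1.28 CPM in control libraries (SD, n = 4 each), and rose 1.92-fold (log2 fold change 0.94, SE 0.19, with an edgeR adjusted p of 0.000547).

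Igf2bp3, a paralogue used as a tumour marker for its near absence from adult epithelia, had 58.6, 57.5, 59.99 and 53.4 CPM in YAP5SA 1 to 4. In control 1 to 4 it had 34.8, 34.4, 35.2 and 39.1 CPM. Every YAP5SA library lay above every control library, as was true of 3 of the 5 tested members and of 45.7% of all tested genes, in either direction. The means were 57.4 ± 2.8 and 35.9 ± 2.2 CPM (SD, n = 4 each), a 1.60-fold rise (log2 fold change 0.68, SE 0.07, with an edgeR adjusted p of 1.42e-07). Exons of Igf2bp3 share 1529 bases with those of Malsu1 on the other strand in GENCODE M21, so without strand part of the reads cannot be assigned between them; Malsu1 had 15.3 ± 1.5 CPM in YAP5SA and 14.3 ± 1.9 CPM in control libraries.

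Igf2bp2, the paralogue that stays on in adult tissue and is a transcriptional target of HMGA2, did not pass the test. It had 114.3, 125.9, 130.2 and 127.9 CPM in YAP5SA 1 to 4, against 135.2, 123.4, 127.6 and 129.6 CPM in control 1 to 4. The groups overlapped, and the log2 fold change was −0.05, SE 0.06 (edgeR adjusted p = 0.490).

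Per length of the coding transcript, Igf2bp2 was the main IGF2BP gene in every library. Its share of the family's CPM per kb was 68.9% ± 1.6 in YAP5SA and 78.8% ± 1.3 in control libraries (SD, n = 4 each). Igf2bp3 made up 28.5% ± 1.75 in YAP5SA and 19.7% ± 1.0 in control libraries, and Igf2bp1 2.54% ± 0.63 and 1.47% ± 0.35. The summed level of the family was 46.3 ± 1.7 CPM per kb in YAP5SA and 41.9 ± 1.4 CPM per kb in control libraries. Whether paralogues changed unequally was tested on the log2 ratio of their CPM within each library, which does not depend on scaling, for 4 pairs in all (exact two-sided permutation tests, with 0.0286 the smallest p that 4 against 4 libraries allow). The ratio of Igf2bp3 to Igf2bp2 was 0.73 log2 units higher in YAP5SA, with no overlap (exact permutation p = 0.0286, 0.0571 adjusted over the 4 pairs). That of Igf2bp1 to Igf2bp2 was 0.96 higher (exact permutation p = 0.0571, adjusted 0.0762), and that of Igf2bp1 to Igf2bp3 was 0.23 higher (exact permutation p = 0.486). None of these passed 0.05 once adjusted. With 4 against 4 libraries, a pair at the smallest p passes once adjusted only if most of the 4 pairs reach it. Failing to pass therefore does not show that the paralogues changed equally. Without YAP5SA 3, the ratios of Igf2bp1 and of Igf2bp3 to Igf2bp2 were at an adjusted p = 0.0381 (exact permutation).

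**Figure D3:**
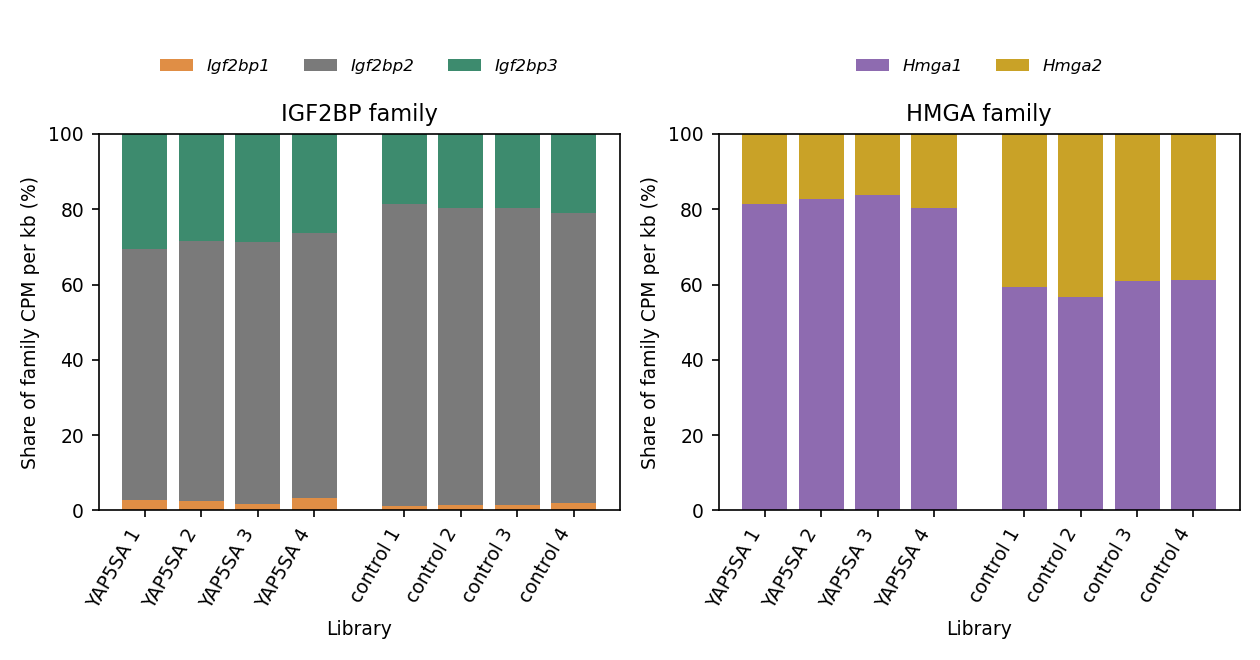
Share of each paralogue in its family's summed CPM per kb of coding transcript, in percent, in each library. Igf2bp3 takes a larger part in the 4 YAP5SA bars, 26.4% to 30.6%, than in the control bars, 18.6% to 20.9%, and Hmga2 a smaller one.

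The HMGA genes went in opposite directions. Hmga2, a let-7 target expressed in embryonic and stem cells, had 77.2, 77.9, 73.5 and 86.6 CPM in YAP5SA 1 to 4, against 165.6, 158.9, 152.4 and 158.6 CPM in control 1 to 4. Every YAP5SA library lay far below every control library. Hmga2 averaged 78.8 ± 5.5 CPM in YAP5SA and 158.8 ± 5.4 CPM in control libraries (SD, n = 4 each). It fell 2.02-fold (log2 fold change −1.01, SE 0.06, with an edgeR adjusted p of 8.07e-11), a change larger in size than that of most tested genes, with 13.8% of them beyond it.

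Hmga1, the paralogue also found in dividing adult cells, had 182.8, 199.4, 205.9 and 189.9 CPM in YAP5SA 1 to 4. In control 1 to 4 it had 131.0, 112.4, 127.6 and 135.5 CPM. Every YAP5SA library was above every control library, and Hmga1 rose 1.54-fold (log2 fold change 0.62, SE 0.06, with an edgeR adjusted p of 1.39e-07). The ratio of Hmga2 to Hmga1 within a library differed by −1.63 log2 units, at −1.30 ± 0.15 in YAP5SA and 0.33 ± 0.12 in control libraries, with no overlap (exact permutation p = 0.0286, 0.0571 adjusted over the 4 pairs, and 0.0381 adjusted without YAP5SA 3). Per length, Hmga2 made up 17.96% ± 1.54 of the HMGA level in YAP5SA and 40.4% ± 2.1 in control libraries. The summed HMGA level was 118.4 ± 4.6 CPM per kb in YAP5SA and 106.1 ± 5.4 CPM per kb in control libraries.

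Both HMGA genes have near copies that can take or lose reads. Hmga1b, a copy of Hmga1 on chromosome 11, had 31.5, 32.03, 34.3 and 32.4 CPM in YAP5SA 1 to 4 and 22.5, 19.7, 22.6 and 22.8 CPM in control 1 to 4. It rose 1.49-fold (log2 fold change 0.58, SE 0.08, with an edgeR adjusted p of 6.29e-06), the direction of Hmga1. The transcribed pseudogene Hmga2-ps1 on chromosome 1 did the opposite of Hmga2. It had 7.06, 5.25, 6.24 and 4.77 CPM in YAP5SA 1 to 4 and 4.17, 2.55, 3.36 and 3.6003 CPM in control 1 to 4, a 1.71-fold rise with no overlap (log2 fold change 0.77, SE 0.19, with an edgeR adjusted p of 0.00218). With the copies added, the log2 fold change was 0.61 for Hmga1 and −0.94 for Hmga2.

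Levels per length of coding transcript put Hmga1 first in both groups, at 97.2 ± 5.1 CPM per kb in YAP5SA and 63.3 ± 5.0 CPM per kb in control libraries. The next 2 places changed hands. In YAP5SA, Igf2bp2 (31.9 ± 1.8 CPM per kb) stood above Hmga2 (21.2 ± 1.5 CPM per kb), and in control libraries Hmga2 (42.8 ± 1.5 CPM per kb) stood above Igf2bp2 (33.1 ± 1.3 CPM per kb). Igf2bp3 followed at 13.2 ± 0.7 and 8.26 ± 0.50 CPM per kb, Igf2bp1 at 1.17 ± 0.28 and 0.616 ± 0.153 CPM per kb, and Lin28b at 0.0994 ± 0.0679 and 0.107 ± 0.0445 CPM per kb in YAP5SA and control libraries. These neighbours were farther apart than the sum of their SDs, though Lin28b and Lin28a were at the limit of detection. The order was the same with the union of all exons as the length.

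The gene lists that follow are read against the 23.6% of all tested genes that were higher and the 25.5% that were lower. The partners of LIN28 and the let-7 processing enzymes went both ways. Among 19 tested genes, 6 rose, 4 fell and 9 did not pass, with a median log2 fold change of 0.16. Ago4, an Argonaute protein that holds mature microRNAs, had 9.16 ± 0.62 CPM in YAP5SA and 3.04 ± 0.76 CPM in control libraries (log2 fold change 1.61, edgeR adjusted p = 3.03e-07). The RNA-binding protein gene Hnrnpa1 rose 1.238-fold, and Prkra, a partner of Dicer, 1.23-fold. Among those that fell were Tut7, a terminal uridylyltransferase (109.0 ± 5.5 CPM in YAP5SA and 142.1 ± 4.3 CPM in control libraries), the nuclear exporter gene Xpo5 (log2 fold change −0.28) and Drosha, which cuts primary microRNAs (−0.29). Tut4, the companion of Tut7, had a log2 fold change of 0.17 and did not pass (edgeR adjusted p = 0.0547).

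Mature let-7 was not measured in these libraries. Of 9 let-7 precursor or host transcripts in the table, 6 had 0 counts in every library and 1, Mir99ahg, was tested. Mir99ahg, the host transcript of a let-7c precursor, had 0.388, 0.276, 0.579 and 0.294 CPM in YAP5SA 1 to 4 and 2.46, 1.79, 1.58 and 1.80 CPM in control 1 to 4. It fell by 2.30 on the log2 scale (edgeR adjusted p = 1.95e-05), with 25 counts over the YAP5SA and 127 counts over the control libraries. Trim71, a stem cell ubiquitin ligase and let-7 target, had 0 counts in YAP5SA and 42 counts over the control libraries (at least 13.7-fold lower, with the YAP5SA group set at 3 counts).

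Known let-7 targets other than the members were more often lower than higher in number. Among 32 tested, 16 fell, 4 rose and 12 did not pass, with a median log2 fold change of −0.21. Mycn, a MYC family factor, had 0.140 ± 0.085 CPM in YAP5SA and 3.70 ± 0.77 CPM in control libraries. The activin-type receptor gene Acvr1c had 0.311 ± 0.217 and 5.42 ± 0.70 CPM, and the death receptor gene Fas 2.08 ± 0.30 and 10.7 ± 1.7 CPM, in YAP5SA and control libraries. Lrig3, a membrane protein of the LRIG family, rose 1.98-fold, the matrix protein gene Thbs1 1.72-fold and the ribonucleotide reductase gene Rrm2 1.30-fold. For these 6 genes the edgeR adjusted p lay between 1.65e-09 and 9.24e-06.

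The wider fetal growth and oncofetal genes also fell more often than they rose. Of 13 tested, 7 fell, 2 rose and 4 did not pass, with a median log2 fold change of −0.40. H19, the imprinted fetal RNA that IGF2BP proteins bind, had 1.99 ± 0.66 CPM in YAP5SA and 11.7 ± 2.4 CPM in control libraries. Peg3, an imprinted zinc finger gene, had 13.4 ± 2.4 CPM in YAP5SA and 55.6 ± 8.1 CPM in control libraries, and Afp, which encodes alpha-fetoprotein, 0.479 ± 0.107 and 5.06 ± 1.245 CPM. Cdkn1c, an imprinted inhibitor of the cell cycle, rose 1.66-fold, and Plag1, a fetal zinc finger activator, had a fold of 1.35 with overlapping groups (edgeR adjusted p = 0.0439). The Plag1 call was lost in 6 of the 8 fits that left out a library, all but those without YAP5SA 2 or control 4, with the edgeR adjusted p reaching 0.147, and under the replicate block (edgeR adjusted p = 0.0501). Igf2, the growth factor mRNA after which the IGF2BP family is named, had 3 counts over the YAP5SA and 0 counts over the control libraries.

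Of 11 tested mRNAs known to be bound by IGF2BP proteins, 6 rose, 3 fell and 2 did not pass, with a median log2 fold change of 0.21. Mki67, the proliferation marker gene, rose 1.40-fold and the mitotic factor gene Foxm1 1.49-fold. H19, Actb (log2 fold change −0.39) and Myc (−0.20) fell. Among 17 genes of m6A writing, erasing and reading, Rbm15 rose (0.28 on the log2 scale), Ythdc2, Ythdf2 and Zc3h13 fell (−0.55, −0.21 and −0.14), and 13 did not pass, with a median of 0.00. The Zc3h13 call was lost with library size as the only scaling (edgeR adjusted p = 0.101), without a low-count filter (0.160), under the replicate block (0.0800), and without YAP5SA 2, 3 or 4 or control 2 or 3. Of 9 other high mobility group genes, 5 rose, none fell and 4 did not pass. Hmgn5 and Hmgn3, which encode nucleosome-binding proteins, rose 1.75-fold and 1.46-fold.

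**Figure D4:**
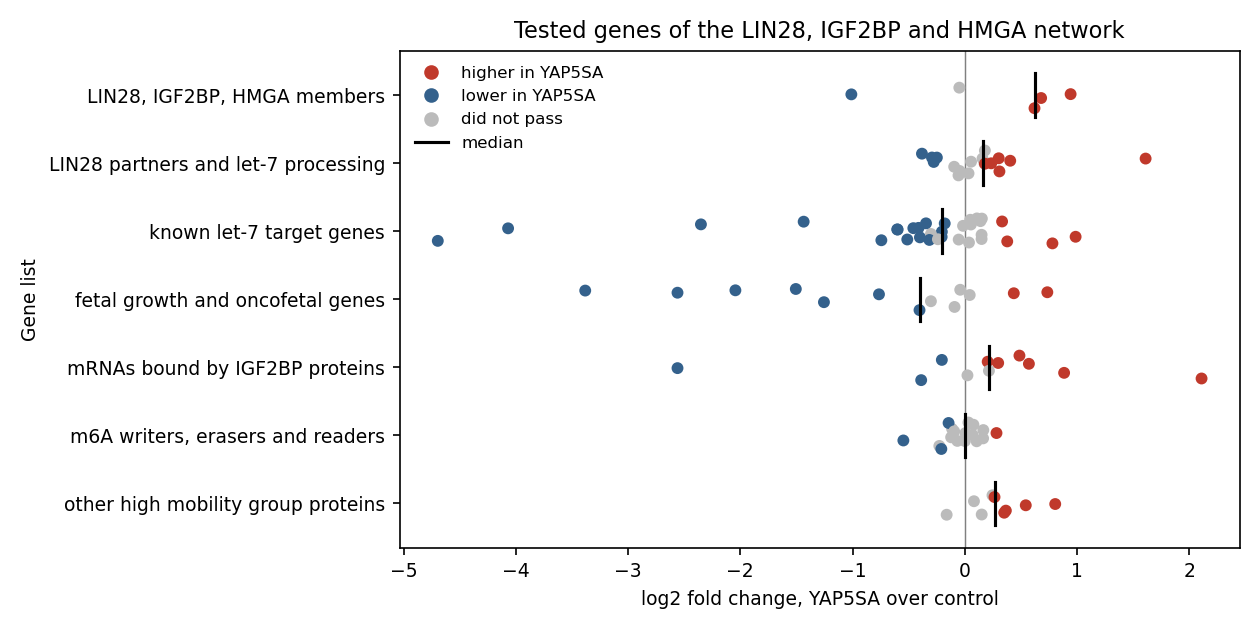
log2 fold change, YAP5SA over control, of each tested gene of the 7 sets, with the median of each set as a black line. Hmga2, at −1.01, is the only member left of the line at 0 that passed the test, and the let-7 targets and fetal growth genes have medians below 0.

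Genes with profiles most like each member were taken by the root mean square distance of log2 CPM, centred on the control mean, over the 8 libraries. Among the nearest to Hmga2 were Chn2 and Slc19a2, at 0.05 and 0.06 log2 units. Nearest to Hmga1 were Fam83e, Tbl1xr1 and Magi3 (0.04 to 0.05), to Igf2bp3 Grk6, Prkab1 and B4galt6 (0.03 to 0.05), and to Igf2bp2 Keap1, Eya3 and Sdf4 (0.03 to 0.04). Igf2bp1, with its wider spread, had Slc39a13, Tent5b and Ehd2 at 0.14 to 0.19 log2 units. All of these points share the same 8 libraries.

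Promoters (250 bases before to 50 after the start, RefSeq, GRCm38.p6) were in the table for 6 of the 7 genes, all but Igf2bp1. The core motif of the TEAD factors, the DNA-binding partners of YAP, GGAATG, was searched on both strands, as was the AP-1 motif TGAGTCA. None of the 6 genes held either motif in this window. Of 32851 promoters, 14.7% and 5.20% did. Most promoters thus held neither motif, and their absence from 6 does not set these genes apart.

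Markers of other cell types were low. The 10 mesenchymal markers summed to 0.718 to 1.71 CPM in YAP5SA and 2.03 to 4.48 CPM in control libraries, with Col1a2 the most abundant and Lum at 0. Endothelial markers summed to 1.29 to 2.83 CPM in YAP5SA and 6.57 to 13.8 CPM in control libraries. Tek made up most of the control sum, with 0.317 ± 0.259 CPM in YAP5SA and 8.88 ± 2.98 CPM in control libraries, and Tie1 most of the YAP5SA sum, with 1.65 ± 0.38 CPM (109 counts) in YAP5SA and 0.0429 ± 0.0528 CPM (3 counts) in control libraries. Erythroid markers summed to at most 0.906 CPM in either group, with Alas2 leading in YAP5SA and Hba-a1 in control libraries. Immune markers, mostly Cd68, summed to 9.72 to 10.4 CPM in YAP5SA and 19.6 to 39.2 CPM in control libraries. Markers of enteric neurons and glia, mostly Ret, summed to 4.14 to 5.54 CPM in YAP5SA and 6.88 to 13.1 CPM in control libraries, with Sox10 at 0. None of the mesenchymal, erythroid or pluripotency markers had enough counts to be tested; of the endothelial markers 1 of 6 was higher and 1 lower, of the immune markers 1 of 7 was higher and 1 lower, and of the neural and glial markers 2 of 8 were lower. The part of these differences, and of the loss of gastric markers, in the changes of Hmga2 and the other members was not tested.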

How the data were processed

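Bulk RNA was sequenced from 8 organoid libraries, and the authors deposited unnormalized whole-number read counts for each gene. The submitters' processing notes name HISAT2 2.0.1, HTSeq 0.6.1, cutadapt and the mm9 build. Annotation, counting options and strand handling: not given in the sources used here. Sequences and gene lengths come from GRCm38 references by symbol. Of 56691 rows, 2639 unnamed ones (0.190% to 0.221% of counts) were left out and rows sharing a symbol were summed; no member shared one. filterByExpr (minimum count 10, minimum total 15) kept 14058 genes, tested with edgeR 4.0.16 (TMM, glmQLFit with robust estimation) in R 4.3.3, with genotype as the only term and Benjamini-Hochberg adjustment over all of them. CPM use the TMM-scaled library sizes, log2 CPM a prior count of 2, and SE is the log2 fold change over the square root of F. Errors after ± are SDs unless called SE. Floors cover counting error only.

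The fit was first tested on simulated data. Members, lists and tests were chosen with earlier results of these data known. The genes named are the members and their copies, up to 3 called genes with the smallest adjusted p per direction of each list, the most abundant marker of each cell type, the 3 nearest genes and the sex genes; Tut4, Trim71, Igf2, Sox2, Tie1, Hba-a1 and the markers at 0 were added after their values were seen. A few others named by this rule are not reported here. Alternatives were other scalings, DESeq2 1.42.0, limma-voom (limma 3.58.1), no filter, a stricter threshold, a replicate block, leaving out each library, and summing gene copies.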

Additional observations from a re-analysis of the deposited data

Results flagged for a closer look

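In 2 of 24 groups of 4 libraries, 1 library stood far from the other three, where chance alone flags about 1 group in 20. Igf2bp3 in control 4, at 39.1 CPM, was the highest control library by a wide gap and still under every YAP5SA library. Hmga1b in control 2, at 19.7 CPM, was the lowest of its group.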

How the results depend on the processing

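Of 248 values under alternative settings, 241 kept their direction and their side of the threshold, or stayed within 1.5 times the count. The 4 paralogue ratios under the replicate block could not pass, since sign flips over 4 pairs of libraries allow no p under 0.05. Their side of the threshold was thus fixed in advance. The log2 ratio of Lin28b, not called, changed sign in 3 of the 248, at 0.11 without YAP5SA 2, 0.17 without YAP5SA 3 and 0.21 without control 2. The 4 called members were called under every alternative tried. Their log2 fold changes over all of these lay between 0.81 and 1.10 for Igf2bp1, 0.65 and 0.72 for Igf2bp3, 0.56 and 0.66 for Hmga1, and −1.06 and −0.94 for Hmga2, while Igf2bp2 never passed (adjusted p between 0.321 and 0.858 over edgeR, DESeq2 and limma). The count of genes called lay between 5377, at an adjusted p under 0.01, and 7611, without a filter. Leaving out single libraries moved the difference in log2 ratio for Igf2bp1 over Igf2bp2 between 0.82 and 1.15. It lay between 0.68 and 0.77 for Igf2bp3 over Igf2bp2, and between −1.69 and −1.57 for Hmga2 over Hmga1. Only without YAP5SA 3 did these pass, and the adjusted p of each pair depends on all 4 pairs. Without that library the difference was 0.73 for Igf2bp3 over Igf2bp2, the same as with it. For Hmga2 over Hmga1 it was −1.57, against −1.63 with all libraries. Without a filter on low counts, 8 rather than 5 of the other high mobility group genes were called, 7 higher and 1 lower. Without control 4, 5 of them were higher and 1 lower. No pairing of the libraries by replicate number was detected, which does not show that they were unpaired. The deviations of same-numbered libraries correlated at −0.08 to 0.09, and 1 of 4 YAP5SA libraries correlated best with its own number. With the replicate block 6586 genes and 4 members were called, with log2 fold changes of 0.92, −0.05, 0.68, 0.62 and −1.01 for Igf2bp1, Igf2bp2, Igf2bp3, Hmga1 and Hmga2. Lin28a, with 1 count, entered the fit only without a filter and was not called; Lin28b is limited by its counts. The alternatives for the gene lists and their genes and for Hmga2 with its copy were chosen after seeing the data.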

Other observations

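Across all tested genes with a 3′ UTR, the 1138 with a let-7 seed match were called lower in 34.2% and higher in 20.2% of cases, against 27.6% and 25.2% of the 10663 without one, with median log2 fold changes of −0.06 and −0.01. UTR length moved with the match, at a median of 2273 bases with and 948 bases without one. Among UTRs of 1500 to 4000 bases, a range chosen after seeing the data, 33.3% of 523 genes with a match and 32.7% of 3026 without one were lower, and 19.5% and 25.5% were higher. These are descriptions, and their cause was not tested.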
